A study of Saccharomyces cerevisiae with 16 samples.

Results

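The genes described here are the ORFs at ranks 6 to 10 of each yeast chromosome arm, counted inward from the end, after named subtelomeric families were left out. Distinct ORF numbers in the array table were ranked on each of the 32 arms from the highest number down, and ranks 6 to 10 held 162 ORFs. Of these, 25 were left out by name (for example PAU, COS, HXT and FLO genes), which left 137 members of 6074 genes. They lay on 31 arms, 63 on left arms and 74 on right arms. The left arm of chromosome III kept none. The rule used names and positions only and no measured value, but it was set with earlier results of these data known.

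Each of 16 spotted 2-colour arrays compared RNA of 1 budding yeast mutant with RNA of a wild-type culture grown beside it, with 4 arrays for each of 4 mutants. The set1 strain lacks SET1, whose product methylates lysine 4 of histone H3, and in the H3K4A strain that lysine is replaced by alanine. The set1htz1 strain also lacks HTZ1, the gene for the histone variant H2A.Z, and the set1htz1sir2 strain lacks SIR2 as well. All 4 mutants and their wild types grew in rich medium with extra adenine and tryptophan, per the deposited description, which names 4 independent biological replicates with exchanged dyes. The sources used here do not give strain background, selectable markers, mating type or the number of clones behind each strain. By that description the H3K4A arrays used total RNA and the remaining arrays mRNA, but every label names polyA RNA. A difference between H3K4A and set1 may thus carry a difference in RNA input, which cannot be told apart from the genotype.

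The ends of yeast chromosomes carry silent chromatin built by Sir2, Sir3 and Sir4, in which Sir2 removes acetyl groups from histone tails and the complex spreads inward from the telomere. H2A.Z and methylation of lysine 4 of H3 belong to active chromatin and are known to oppose the spread of Sir proteins. Genes a short way in from the ends are a mixture of single-copy metabolic genes, duplicated families and ORFs of unknown function, and many serve growth on unusual nutrients. The comparison of the triple with the double mutant shows which members differ when SIR2 is deleted as well. Selectable markers are not given, so a marker difference between these strains cannot be told apart from loss of SIR2.

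Values are log2 ratios of mutant over wild type, so 0 means equal levels and 1 means a doubling. Errors after ± are standard errors of limma's fit unless an SD is named, and a call is a Benjamini-Hochberg adjusted p under 0.05 over the 5147 genes with a value on at least 3 of 4 arrays in every group. Of the 137 members, 108 passed that filter and 29 did not. Between 117 and 126 members had a value on each array. In bulk cultures, fewer expressing cells and less RNA per cell cannot be told apart. Near-identical copies, such as SNZ2 and SNZ3, SNO2 and SNO3, or the repeats shared by the right ends of chromosomes I and VIII, can share signal on a spotted array, so their values are uncertain as values of single genes.

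The deleted genes were low in the strains whose labels name them, except that HTZ1 had no value in set1htz1sir2. SET1 had a mean log2 ratio of -2.67 ± 0.42 (SD, n = 4) in set1. It was at -2.34 ± 0.45 in the double mutant, -2.31 ± 0.22 in the triple mutant and -0.14 in H3K4A. HTZ1 was at -2.94 ± 0.26 (SD) in set1htz1, and SIR2 at -2.44 ± 0.28 (SD) in set1htz1sir2. Of the histone H3 genes, HHT2 was raised in H3K4A, at 1.455 (limma, adjusted p = 6.3e-07), and HHT1 stood at 0.02 there. HHT2 was also higher in H3K4A than in set1, by 1.79 (limma, adjusted p = 7.8e-06). The part of this rise in the H3K4A results was not tested. Arrays of opposite dye orientation stood apart in set1. Over all genes their ratios correlated from -0.27 to 0.09, against 0.73 to 0.8 for arrays of the same orientation, and in H3K4A these ranges were -0.28 to 0.61 and 0.09 to 0.36. Over the members the opposite orientation gave 0.85 to 0.90 for the triple mutant, 0.67 to 0.82 for the double mutant, 0.08 to 0.42 for set1 and -0.12 to 0.54 for H3K4A. The fit holds a dye term for each gene. Haploid-specific genes fall when the silent mating loci are expressed. Of 12 tested genes of a haploid-specific list, 8 were called lower in set1htz1sir2. The list also holds a-specific genes, of which STE2, STE6 and BAR1 were tested and not called lower there. Of 28 tested general stress genes, 24 were called higher in set1htz1, 14 in H3K4A and 14 in set1htz1sir2 (1 lower there). In set1, 1 of them was called higher and 6 lower. The part of these lists in the members' results was not tested.

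In set1, 28 members were called higher and 7 lower, 25.9% and 6.48% of the 108 tested, where 9.05% of all genes were called higher and 9.79% lower (18.8% in either direction). The members' median was 0.03 and that of all genes -0.02. The largest rise was in OPT2, which encodes an oligopeptide transporter. Other rises of size were in YNR071C (0.94 ± 0.11), DFP4 (0.90 ± 0.10), the putative enolase regulator REE1 (0.81 ± 0.16), the formate dehydrogenase gene FDH1 (0.81 ± 0.09), YJL218W (0.80 ± 0.09) and the ubiquitin protease gene UBP11 (0.78 ± 0.12). All 4 arrays had the sign of the call, or every measured one, in 26 of the 35 called members. The exceptions were BDH1, YAL064W, YCR101C, DLD3, YHR214W-A, URA1, SNZ2, YPL278C and ARR1.

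In H3K4A, 12 members were called higher and none lower in limma, 11.1% and 0%, where 3.59% of all genes were called higher and 0.602% lower (4.2% in either direction). At an unadjusted p under 0.05, 30 members passed in either direction, where 16% of all genes (825) did. The members' median was 0.10 against -0.02 over all genes. The 12 were URA1, YAR068W, YHR214W-A, DDI3, FDH1, IMA1, MAL33, YOR387C, IMA3, YHR214W, SNZ3 and IMA5, and each was higher on every measured array. With the H3K4A arrays fitted alone, 4 members were called higher, and calls over all genes went from 216 to 23. After quantile normalization 25 were, and calls over all genes rose to 786.

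The double mutant set1htz1 had 42 members called higher and 16 lower, 38.9% and 14.8%, where 21.2% of all genes were called higher and 26.3% lower (47.5% in either direction). The triple mutant set1htz1sir2 had 46 higher and 24 lower, 42.6% and 22.2%, where the shares over all genes were 24.1% and 26.3% (50.4% in either direction). Medians of the members were 0.18 and 0.13, and those of all genes -0.04 and -0.03. In each of the 4 mutants the share of members called higher was thus above that of all genes, and the share called lower was below it. When a value on all 4 arrays of every group was required, 75 members were tested, of which 27 were called higher in set1htz1 and 31 in set1htz1sir2. Of the 3665 genes that passed this filter, 1790 and 1918 were called in either direction. Their split into higher and lower was not counted, so these member counts have no matching share over all genes.

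**Figure D1:**
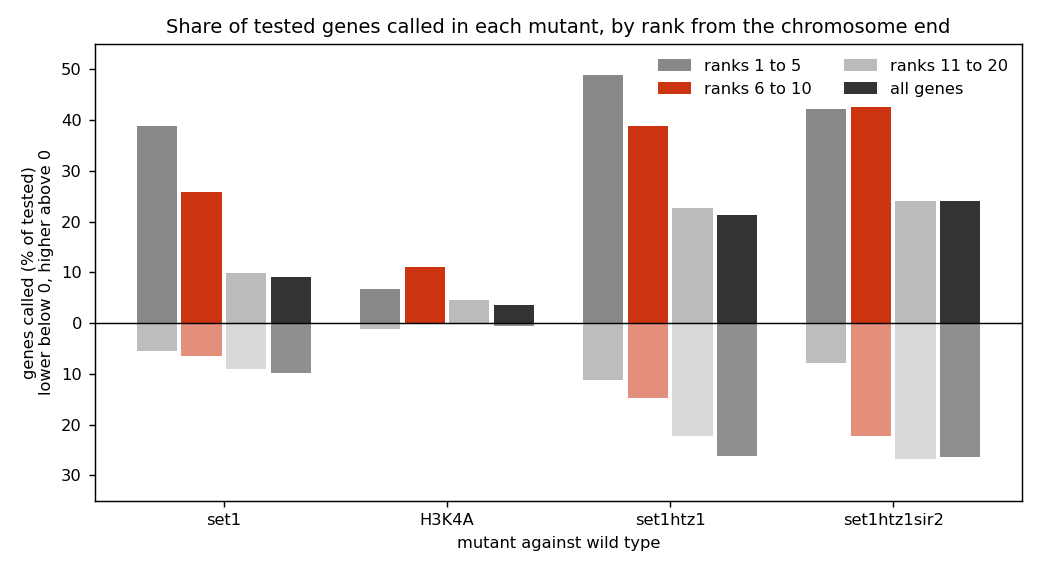
Percent of tested members and of all tested genes called higher or lower in each comparison (limma, adjusted p under 0.05). Bars start at 0 and stand for shares of genes, so they carry no error bar; the share of members called higher was 42.6% in set1htz1sir2, 38.9% in set1htz1, 25.9% in set1 and 11.1% in H3K4A.

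The members differed along the arm. In set1htz1 the median log2 ratio was 0.46 at rank 6, 0.24 at rank 7, 0.16 at rank 8, 0.06 at rank 9 and 0.07 at rank 10, and the ranks just outside stood at 0.33 (rank 5) and 0.08 (rank 11). In set1htz1sir2 the medians from rank 6 to rank 10 were 0.61, 0.26, 0.15, -0.12 and 0.04, with 0.11 at rank 5 and 0.03 at rank 11. In set1 they were 0.22, 0.12, 0.01, 0.02 and -0.03, and in H3K4A 0.20, 0.08, 0.10, 0.08 and 0.11. Rank 6 held the highest of the 5 medians in each mutant. It rested on 17 tested members of 28, and ranks 7 to 10 on 22 to 25 each. The order was not tested, since neighbours on an arm are not replicates.

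**Figure D2:**
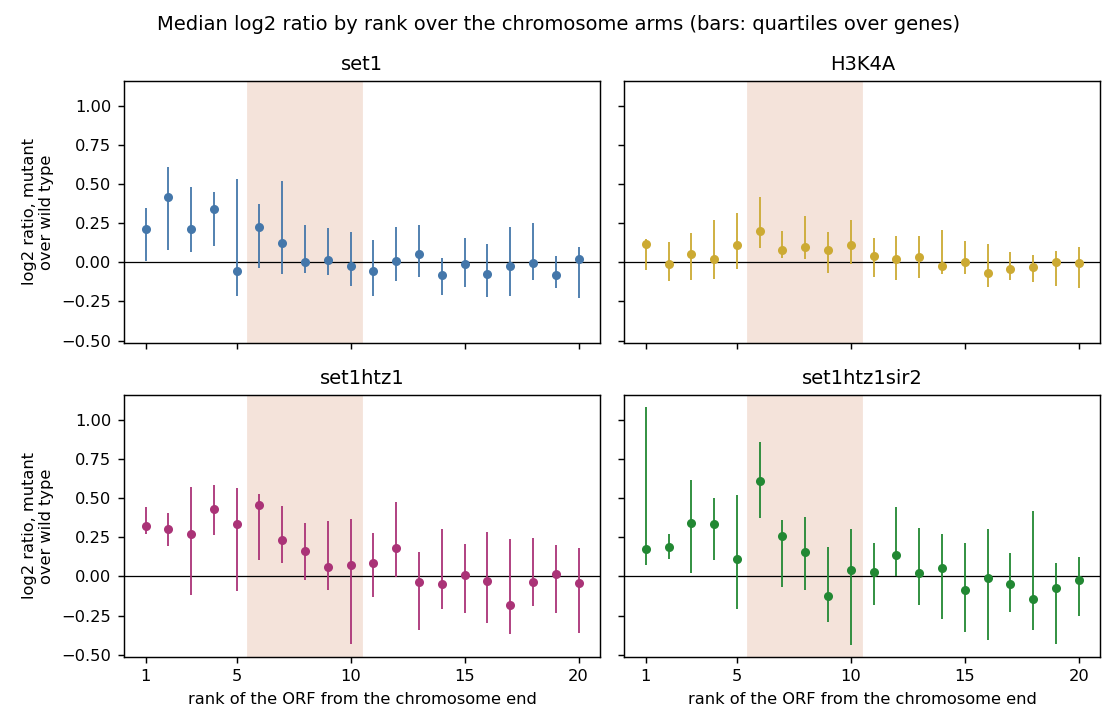
Median log2 ratio of mutant over wild type by rank of the ORF from the chromosome end (x axis, rank 1 outermost), 1 panel per mutant, with members at ranks 6 to 10 shaded and bars for the quartiles over genes. In set1htz1 and set1htz1sir2 the medians at rank 6 were 0.46 and 0.61, and those at ranks 9 and 10 lay between -0.12 and 0.07.

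The neighbouring ranks gave these counts. Of 90 tested genes at ranks 1 to 5, 44 were called higher and 10 lower in set1htz1 (48.9% and 11.1%). In set1htz1sir2 there were 38 and 7 (42.2% and 7.78%), in set1 35 and 5 (38.9% and 5.56%), and in H3K4A 6 and 1 (6.67% and 1.11%). Of 265 tested genes at ranks 11 to 20, 60 were called higher and 59 lower in set1htz1 (22.6% and 22.3%). In set1htz1sir2 there were 64 and 71 (24.15% and 26.8%), in set1 26 and 24 (9.81% and 9.06%), and in H3K4A 12 and none (4.53% and 0%). Medians in set1htz1 were 0.33 at ranks 1 to 5, 0.18 in the members and 0.00 at ranks 11 to 20. H3K4A did not follow that order, with medians of 0.03, 0.10 and -0.02. No test of these differences between ranks was made.

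Over the 4 mutants, 82 tested members were called in at least 1 and 26 in none. The latter are 24.1% of the members, against 30.7% of all genes. In at least 3 mutants 22 members were called higher, 20.4% against 5.85% of all genes, and 5 lower, 4.63% against 4.43%. The shares called higher in at least 3 mutants were 16.7% at ranks 1 to 5 and 7.17% at ranks 11 to 20. The 5 members called higher in all 4 mutants were SNZ3, DDI3, IMA1, IMA3 and FDH1. They are 4.63% of the members, against 1.15% of all genes, 5.56% at ranks 1 to 5 and 0.377% at ranks 11 to 20. The other 17 members called higher in at least 3 mutants were YAL064W, YAR068W, MAL33, YCR102C, DFP4, YHR214W-A, HYR1, REE1, URA1, YLR460C, YMR320W, SNZ2, YNR071C, YOR387C, YPL277C, YPL278C and OPT2. Those lower in set1, set1htz1 and set1htz1sir2 were BDH1, YDR537C, PAD1, FDC1 and ARR1. DLD3, IMA5 and URA1 were called in opposite directions in different mutants, where 3.3% of all genes were. All mutants but H3K4A lack SET1, so these counts across mutants are not independent of each other.

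Calls near the threshold changed with single arrays left out, and none of the fitted values changed sign. Over all tested members, 10 of the 35 calls in set1, 5 of 12 in H3K4A, 18 of 58 in set1htz1 and 18 of 70 in set1htz1sir2 missed the threshold in at least 1 of the 16 fits that each left out 1 array. These calls had fitted sizes of 0.28 to 0.47 on the log2 scale in set1, 0.35 to 0.49 in H3K4A, 0.21 to 0.49 in set1htz1 and 0.23 to 0.44 in set1htz1sir2. In set1 they were YAL064W, YAR068W, YCR101C, DLD3, IMA1, URA1, SNZ2, YOR387C, YPL278C and ARR1, and in H3K4A MAL33, SNZ3, IMA1, YHR214W and IMA5. Some missed it also without arrays of another mutant, which share the estimate of the spread. YHR214W in H3K4A missed it in 13 fits, 9 of them of this kind, with fitted values from 0.34 to 0.40. In set1htz1 they were YCR099C, DLD3, FAU1, TOG1, YFL063W, KGD4, IMA1, YHR210C, NRE1, IRC24, OXP1, UBP11, GTT2, MHT1, GAB1, TUB3, RSC9 and YMR321C, with an adjusted p of at most 0.22. In set1htz1sir2 they were GDH3, YAL064W, YAR062W, PKC1, SUL1, YCR099C, EMA35, DLD3, DDI3, YGR290W, DFP4, HSU1, PGA3, SNZ2, CSS3, PHR1, YPL277C and ARR1, with the same bound. FDH1 and IMA3 kept all 4 of their calls whichever array was left out.

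**Figure D3:**
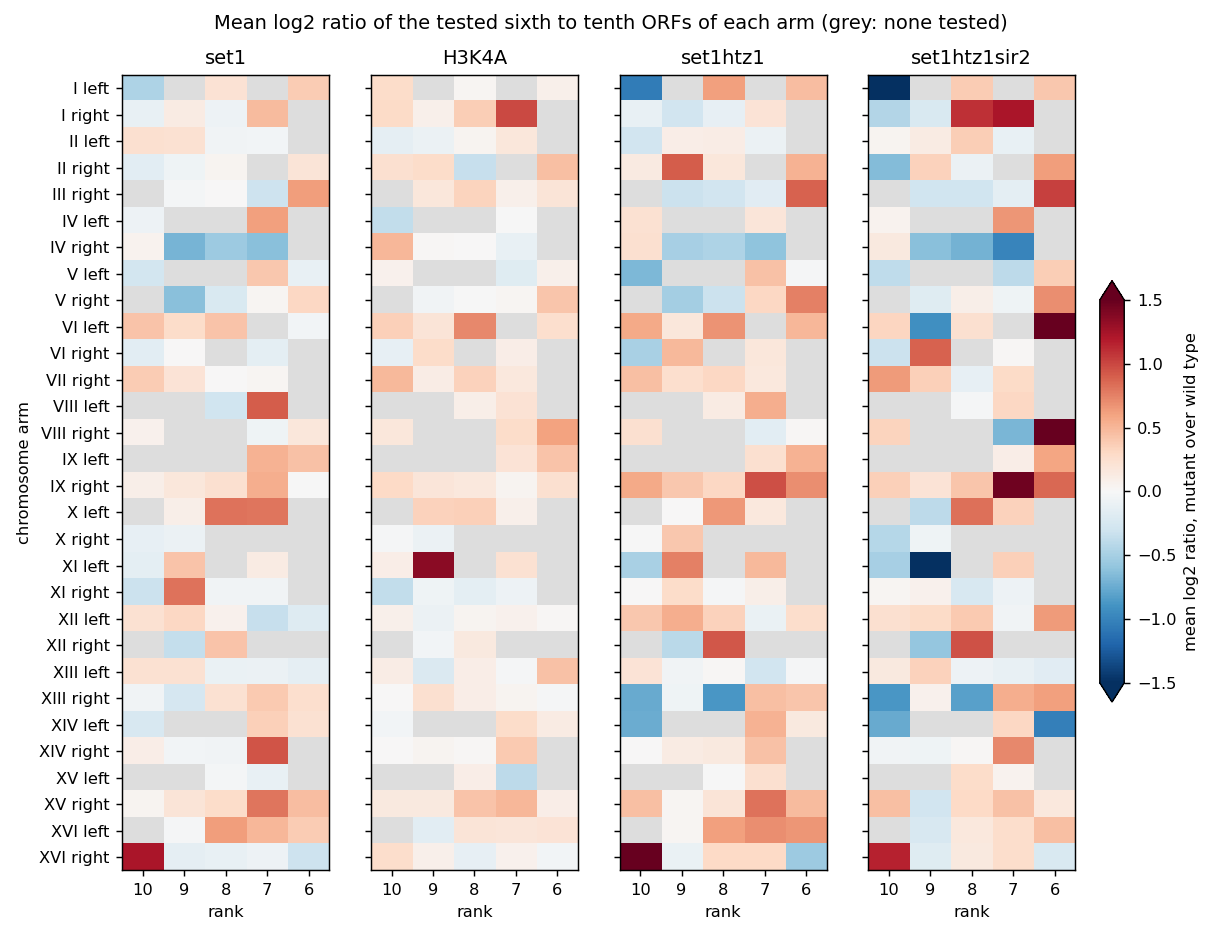
Mean log2 ratio of the tested members by chromosome arm (rows) and rank (columns, 10 to 6 toward the chromosome end), 1 panel per mutant, on 1 colour scale that ends at -1.5 and 1.5. Red is higher and blue lower than wild type, grey has no tested member, ORFs that share a rank are averaged, and the left arm of chromosome VII is not drawn because none of its members was tested.

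Members of oxidation, reduction and detoxification were the largest named group, with 16 tested. Of these, 11 were called higher and 3 lower in set1htz1, 8 and 5 in set1htz1sir2, 7 and 3 in set1, and 2 and none in H3K4A. Counts of this and the later role groups stand beside these shares over all genes, higher and lower. They were 21.2% and 26.3% in set1htz1, 24.1% and 26.3% in set1htz1sir2, 9.05% and 9.79% in set1, and 3.59% and 0.602% in H3K4A. YCR102C and YLR460C, related ORFs of the quinone oxidoreductase family, rose in every mutant that lacks SET1. The arrays of YCR102C read 0.29, 0.74, 0.62 and 0.86 in set1 and 0.57, -0.08, 0.24 and 0.06 in H3K4A. They read 0.79, 0.81, 1.01 and 0.92 in set1htz1 and 0.71, 1.18, 1.03 and 1.15 in set1htz1sir2. All 12 arrays of the strains without SET1 were above 0, with fitted rises of 0.63 ± 0.11 (adjusted p = 0.00074), 0.88 ± 0.11 (5e-06) and 1.02 ± 0.11 (7.1e-07).

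HYR1 encodes a thiol peroxidase that senses hydrogen peroxide. Its log2 ratios were 0.53, 0.36, 0.86 and 0.41 in set1 and -0.25, 0.24, 0.46 and -0.31 in H3K4A. They were 0.88, 1.06, 1.01 and 0.92 in set1htz1 and 1.26, 1.40, 1.70 and 1.48 in set1htz1sir2. The set1htz1sir2 arrays were all above the set1htz1 arrays, and the H3K4A arrays fell on both sides of 0. The rises were 0.54 ± 0.12 in set1, 0.97 ± 0.12 in set1htz1 (adjusted p = 2.6e-06) and 1.46 ± 0.12 in set1htz1sir2 (1.1e-08), and the difference of the last pair was not called. HYR1 lies on the right arm of chromosome IX, where all 5 tested members rose in set1htz1. The other four were the glutathione transferase gene GTT1 (0.71 ± 0.12), IRC24 (0.31 ± 0.10), NRE1 (0.40 ± 0.12) and LYS1 (0.56 ± 0.09), and all but NRE1 were also called in set1htz1sir2.

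BDH1, the butanediol dehydrogenase gene at rank 10 of the left arm of chromosome I, was the largest fall in set1htz1. Its log2 ratios were 0.01, -0.86, -0.15 and -0.84 in set1 and 0.47, 0.14, 0.39 and 0.10 in H3K4A. They were -0.81, -1.32, -0.97 and -1.12 in set1htz1 and -1.56, -1.43, -1.32 and -1.79 in set1htz1sir2. In set1 the pair of arrays with the mutant in Cy3 was low and the pair with it in Cy5 was near 0, whereas both strains that also lack HTZ1 were low on every array. The falls were -1.06 ± 0.10 in set1htz1 (adjusted p = 1.2e-07), -1.53 ± 0.10 in set1htz1sir2 (6.2e-10) and -0.46 ± 0.10 in set1 (0.0029). Its neighbour and paralogue BDH2 had no H3K4A value and was not tested, and it had means of -0.61 ± 0.16 (SD, n = 3), -0.38 ± 0.13 (SD, n = 4) and -0.45 ± 0.08 (SD, n = 4) in the same strains.

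FDC1 and PAD1, neighbours on the right arm of chromosome IV, act together in decarboxylating phenylacrylic acids such as ferulic acid. FDC1 read -0.69, -0.89, -0.32 and -0.62 in set1 and -0.20, -0.01, -0.17 and -0.08 in H3K4A. It read -0.69, -0.64, -0.56 and -0.51 in set1htz1 and -1.06, -0.94, -1.09 and -0.86 in set1htz1sir2. Every array was below 0, and those of set1htz1sir2 were below those of set1htz1, but the difference between these strains was not called. Its falls were -0.63 ± 0.09, -0.60 ± 0.09 and -0.99 ± 0.09 in the strains without SET1 (adjusted p from 5.9e-08 to 7.9e-05). PAD1 fell by 0.54, 0.46 and 0.70 on the log2 scale and YDR537C, which overlaps PAD1 so that their signals cannot be told apart, by 0.69, 0.50 and 0.62 in set1, set1htz1 and set1htz1sir2. In H3K4A none of these neighbours was called.

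FDH1 rose by 0.82 ± 0.09 in set1htz1, 0.81 ± 0.09 in set1, 0.50 ± 0.09 in H3K4A and 0.44 ± 0.09 in set1htz1sir2. YPL276W, an ORF of the interrupted second formate dehydrogenase gene of the left arm of chromosome XVI, rose by 0.62 ± 0.10 in set1 and 0.67 ± 0.11 in set1htz1. DDI3, a cyanamide hydratase gene with a near-identical copy elsewhere, rose in all 4 mutants, from 0.24 ± 0.09 in set1htz1sir2 to 0.72 ± 0.09 in H3K4A. GTT2, another glutathione transferase gene, rose by 0.35 ± 0.12 and 0.39 ± 0.12 in set1htz1 and set1htz1sir2. DLD3, a D-lactate dehydrogenase family gene, was called in opposite directions, at -0.39 ± 0.14 in set1htz1sir2, 0.45 ± 0.14 in set1htz1 and 0.40 ± 0.14 in set1. In set1 its arrays split by dye, at 0.96 and 1.08 with the mutant in Cy5 and -0.42 and -0.01 with it in Cy3.

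Of 6 tested members of amino acid and sulfur metabolism, none was called in set1 or H3K4A, with 1 and 2 at an unadjusted p under 0.05, where 31.3% and 16% of all genes passed. In set1htz1 and in set1htz1sir2, 5 were called higher and 1 lower. The 5 were the glutamate dehydrogenase gene GDH3 (0.61 ± 0.15 in set1htz1), LYS1 of lysine synthesis (0.56 ± 0.09), the serine and hydroxyaspartate dehydratase gene SRY1 (0.49 ± 0.09), HSU1 (0.41 ± 0.08) and MHT1, a homocysteine methyltransferase gene (0.27 ± 0.09). The member that fell was the oxoprolinase gene OXP1, at -0.49 ± 0.14. The difference between set1htz1 and set1 was itself called for LYS1 (0.48 ± 0.13, adjusted p = 0.015), MHT1 (0.46 ± 0.13, 0.02) and SRY1 (0.36 ± 0.12, 0.042).

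Members of maltose and isomaltose use encode isomaltases (IMA genes) and regulators of maltose genes. Of 5 tested, 4 were called higher in H3K4A, 3 in set1htz1, 2 in set1 and 4 in set1htz1sir2, and 1 was called lower, in set1htz1sir2. IMA1 rose by 0.38 ± 0.11, 0.49 ± 0.11, 0.44 ± 0.13 and 0.64 ± 0.11 in set1, H3K4A, set1htz1 and set1htz1sir2. IMA3, which has a near-identical copy, rose by 0.45 ± 0.08, 0.42 ± 0.08, 0.52 ± 0.08 and 0.59 ± 0.08 in the same order. MAL33 rose in the mutants other than set1, by 0.45 ± 0.10, 0.51 ± 0.12 and 0.63 ± 0.10. IMA5 differed, with a rise of 0.35 ± 0.08 in H3K4A and a fall of -0.40 ± 0.08 in set1htz1sir2.

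Of 12 tested transport members, 1 was called higher in set1 and none in H3K4A (limma, 5 at an unadjusted p under 0.05). In set1htz1, 3 were called higher and 1 lower, and in set1htz1sir2 3 and 2. The share called higher was 25% in both strains, near the 21.2% and 24.1% of all genes. OPT2, at rank 10 of the right arm of chromosome XVI, read 1.58, 0.94, 1.66 and 0.76 in set1 and 0.48, 0.14, 0.03 and 0.41 in H3K4A. It read 1.46, 1.74, 1.94 and 1.40 in set1htz1 and 0.89, 1.03, 1.41 and 1.29 in set1htz1sir2. Every array was above 0, and no H3K4A array reached the lowest array of another mutant. The rises were 1.24 ± 0.13 (adjusted p = 3.2e-06), 1.64 ± 0.13 (2.2e-08) and 1.16 ± 0.13 (1e-06) in set1, set1htz1 and set1htz1sir2, or 2.35-fold, 3.11-fold and 2.23-fold. In H3K4A it stood at 0.27 and was not called.

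SUL1, a sulfate permease gene, rose by 0.92 ± 0.16 in set1htz1 on 3 arrays. PUG1, a plasma membrane transporter of protoporphyrin and haem, rose by 0.75 ± 0.15 in set1htz1 and 0.69 ± 0.15 in set1htz1sir2. FET4, the low-affinity iron transporter gene, fell by 0.87 in set1htz1 (SE 0.18) and 0.81 in set1htz1sir2 (SE 0.18). VBA2, a vacuolar transporter of basic amino acids, fell only in set1htz1sir2 among the comparisons with wild type, at -0.65 ± 0.09.

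The vitamin B6 genes SNZ2, SNO2, SNZ3 and SNO3 lie as neighbouring SNZ and SNO pairs near chromosome ends, and SNZ and SNO proteins together form an enzyme of pyridoxal phosphate synthesis. With the folate gene FAU1, 5 members of vitamin metabolism were tested, and 2 were called higher in set1, 1 in H3K4A, 2 in set1htz1 with 1 lower, and 2 in set1htz1sir2 with 2 lower. SNZ3 rose in all 4 mutants, from 0.32 ± 0.10 in set1htz1sir2 to 0.57 ± 0.10 in set1htz1, and SNZ2 in all but H3K4A. SNO2 read 0.44, -0.20, 0.67 and -0.01 in set1 and 0.04, 0.21, 0.10 and 0.13 in H3K4A. It read 0.12, 0.11, 0.18 and 0.19 in set1htz1 and -0.92, -1.06, -1.0 and -1.15 in set1htz1sir2. The set1htz1sir2 arrays lay below every other array of this gene. SNO3 read 0.11, -0.01, 0.57 and 0.45 in set1 and 0.28, 0.07, 0.17 and 0.27 in H3K4A. It read 0.14, 0.25, -0.03 and 0.30 in set1htz1 and -1.0, -0.81, -1.03 and -0.84 in set1htz1sir2. It showed the same separation of the triple mutant. The falls in set1htz1sir2 were -1.03 ± 0.10 for SNO2 and -0.92 ± 0.10 for SNO3, while the partner genes SNZ2 and SNZ3 were called higher in that strain, at 0.30 ± 0.12 and 0.32 ± 0.10.

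Among 8 tested members of transcription and signalling, 1 was called lower in set1 and none in H3K4A (limma, none at an unadjusted p under 0.05 either). In set1htz1, 1 was called higher and 3 lower, and in set1htz1sir2 1 and 2. RPD3, the histone deacetylase gene at rank 10 of the left arm of chromosome XIV, fell by 0.75 and 0.76 in the double and triple mutants. ARR1, the regulator of arsenic resistance genes, fell by 0.55 in set1htz1, 0.31 in set1 and 0.23 in set1htz1sir2. RSC9, of the RSC remodelling complex, fell by 0.29 in set1htz1. In the list of 29 silencing factors, which holds RPD3, 23 were tested. None was called higher in set1 and 5 lower, and none in H3K4A either way (limma, 1 at an unadjusted p under 0.05). In set1htz1, 2 were called higher and 10 lower, and in set1htz1sir2 1 and 9. The 9 include SIR2 itself, which is deleted in that strain. The shares called lower were 21.7% in set1, 43.5% in set1htz1 and 39.1% in set1htz1sir2, where those over all genes were 9.79%, 26.3% and 26.3%. The shares called higher in set1htz1 and set1htz1sir2 were 8.7% and 4.35%, against 21.2% and 24.1%.

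Of 7 tested members of other metabolism, 2 were called higher and 2 lower in set1htz1sir2, 2 higher in set1htz1, and 1 each in set1 and H3K4A. URA1, the dihydroorotate dehydrogenase gene of pyrimidine synthesis at rank 9 of the left arm of chromosome XI, had the largest change of any member. Its log2 ratios were 0.95, -0.22, 1.23 and -0.23 in set1 and 1.67, 1.09, 1.35 and 1.30 in H3K4A. They were 1.34, 0.40, 1.41 and -0.15 in set1htz1 and -2.40, -3.06, -2.25 and -3.47 in set1htz1sir2. The set1 arrays split by dye, and so did those of set1htz1, at 1.34 and 1.41 with Cy5 and 0.40 and -0.15 with Cy3. The H3K4A arrays were all high, and those of set1htz1sir2 were far below 0. The fitted values were -2.80 ± 0.13 in set1htz1sir2 (adjusted p = 1.3e-11), a 6.94-fold lower level, 1.35 ± 0.13 in H3K4A (4.2e-06), 0.75 ± 0.13 in set1htz1 (0.00018) and 0.43 ± 0.13 in set1 (0.031). The set1 call was lost without the dye term.

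Of 9 tested members with other cell functions, 1 rose and 1 fell in set1, 2 and 3 did in set1htz1, 2 fell in set1htz1sir2, and none was called in H3K4A (limma, 1 at an unadjusted p under 0.05). UBP11 rose by 0.78 ± 0.12 in set1 and 0.27 ± 0.11 in set1htz1. FMP10, which encodes a mitochondrial protein, fell by 0.63 and 0.51 in those strains. The 33 tested members without an assigned role had 17 called higher and 5 lower in set1htz1sir2, 13 and 4 in set1htz1, 12 and 2 in set1, and 1 and none in H3K4A. YMR317W fell by 0.76 in set1htz1 and 0.88 in set1htz1sir2, and YMR320W, which lies beyond FET4 on the same arm, rose by 0.39, 0.45 and 0.55 in set1, set1htz1 and set1htz1sir2. YPL277C and YPL278C, side by side on the left arm of chromosome XVI, rose by 0.50 and 0.39 in set1 and by 0.72 and 0.67 in set1htz1.

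The right ends of chromosomes I and VIII carry a duplicated segment beside the flocculin genes FLO1 and FLO5, in which YAR066W pairs with YHR214W and YAR068W with YHR214W-A. Of 7 tested ORFs of this segment, 2 were called higher in set1, 3 in H3K4A, none in set1htz1 (limma, 1 at an unadjusted p under 0.05, where 53.9% of all genes passed), and 4 in set1htz1sir2, with 2 lower in the last. YHR214W-A read 0.72, -0.01, 0.53 and 0.19 in set1 and 0.96, 0.55, 0.96 and 0.82 in H3K4A. It read 0.23, -0.18, 0.43 and -0.07 in set1htz1 and 1.71, 1.40, 1.81 and 1.48 in set1htz1sir2. Its H3K4A and set1htz1sir2 arrays were above every set1htz1 array.

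YAR068W read 0.23, 0.92, 0.04 and 0.69 in set1 and 1.08, 0.88, 0.83 and 1.17 in H3K4A. It read 0.26, -0.07, 0.25 and 0.36 in set1htz1 and 1.18, 1.36, 0.99 and 1.36 in set1htz1sir2. In set1 its high arrays were the pair with the mutant in Cy3, whereas those of YHR214W-A were the pair with it in Cy5. YHR214W read 0.38, -0.14, -0.03 and -0.27 in set1 and 0.53, 0.24, 0.40 and 0.32 in H3K4A. It read -0.12, -0.36, -0.06 and 0.26 in set1htz1 and 1.54, 1.43, 1.39 and 1.60 in set1htz1sir2. The set1htz1sir2 arrays lay above all others of this ORF.

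YAR066W read -0.01, -0.22, -0.34 and 0.26 in set1 and 0.78, 0.10, 0.33 and 0.25 in H3K4A. It read -0.34, -0.30, -0.15 and 0.30 in set1htz1 and 0.86, 1.25, 0.91 and 1.40 in set1htz1sir2. Here too the set1htz1sir2 arrays were the highest. The rises in set1htz1sir2 were 1.60 ± 0.08 for YHR214W-A (adjusted p = 3.1e-11), 1.49 ± 0.10 for YHR214W (1.8e-09), 1.22 ± 0.11 for YAR068W (6.4e-08) and 1.11 ± 0.13 for YAR066W (1.3e-06). In H3K4A, YAR068W rose by 0.99 ± 0.11 and YHR214W-A by 0.82 ± 0.08. The 2 lower members were YAR062W, at -0.44 ± 0.14, and YHR213W, at -0.68 ± 0.10, which form another pair of the segment.

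YFL063W, at rank 6 of the left arm of chromosome VI, had the largest rise of any member. It read -0.03, 0.56, -0.62 and -0.06 in set1 and 0.08, 0.30, 0.36 and 0.25 in H3K4A. On the 3 set1htz1 arrays with a value it read 0.34, 0.49 and 0.67, and in set1htz1sir2 2.34, 1.94, 2.08 and 2.19. The set1htz1sir2 arrays were far above all others. The rise there was 2.14 ± 0.13 (adjusted p = 6.1e-10), or 4.4-fold, and that in set1htz1 0.48 ± 0.15 (0.015).

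The direct comparison of set1htz1sir2 with set1htz1 called 6 members higher and 12 lower, where 7.25% of all genes were called higher and 5.4% lower (12.6% in either direction). The members' median difference was -0.06. This comparison shares the set1htz1 arrays with that of set1htz1 against wild type. In it, 9 of the 12 tested genes of the haploid-specific list were called lower, and the selectable markers of the strains are not given. The part of either in the members' differences, URA1 included, was not tested. The largest positive differences were 1.66 ± 0.20 for YFL063W (adjusted p = 1.4e-05), 1.56 ± 0.15 for YHR214W (7.2e-07), 1.5 ± 0.12 for YHR214W-A (5.5e-08), 1.23 ± 0.18 for YAR066W and 1.02 ± 0.16 for YAR068W, and YDL241W followed with 0.48 ± 0.14. The largest negative one was that of URA1, at -3.55 ± 0.19 (1.9e-10), or 11.7-fold. SNO2 (-1.18 ± 0.14), SNO3 (-1.09 ± 0.14), DLD3 (-0.84 ± 0.19), VBA2 (-0.79 ± 0.12) and YHR213W (-0.53 ± 0.14) came next. The arrays of the strains did not overlap for 16 of the 18 called members, where they did not for 85.9% of all called genes. After quantile normalization the split was 5 higher and 5 lower, and calls over all genes went from 651 to 243. The calls of YDL241W, BDH1, DDI3, YHR213W, IMA5, PGU1, YPL276W and YPL277C, with sizes of 0.40 to 0.53, missed the threshold in at least 1 fit that left out 1 array (adjusted p of at most 0.13). The count of lower members was 5, 5 and 6 without set1htz1 replicates 2, 3 and 4, and 7 and 6 without set1htz1sir2 replicates 1 and 4. Calls over all genes fell as well, from 651 to 451, 344, 548, 354 and 439 in the same order.

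**Figure D4:**
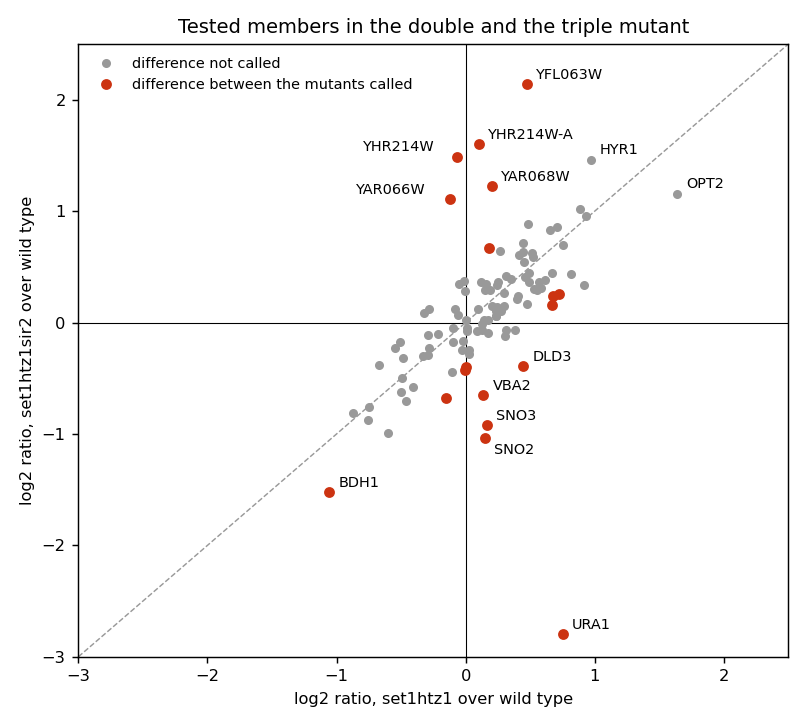
Fitted log2 ratio to wild type of the tested members in set1htz1 (x axis) and set1htz1sir2 (y axis), with the dashed line marking equal values. Red points are the 18 members whose difference between the strains was called. YFL063W and the repeated ORFs YHR214W, YHR214W-A, YAR066W and YAR068W beside FLO1 and FLO5 lie above the line. URA1, SNO2, SNO3 and YHR213W, another ORF of that repeated segment, lie below it.

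A member lowered in set1htz1 and raised again on loss of SIR2 would be called lower in the first and higher in the difference. No member met both in limma, where 2.82% of all genes (145) did. At an unadjusted p under 0.05 in both, 4 members did, where 7.19% of all genes (370) did. They were YEL068C (-0.68 in set1htz1 and a difference of 0.30), FMP10 (-0.51 and 0.33), FAU1 (-0.32 and 0.41), a folate enzyme gene, and ARR1 (-0.55 and 0.32). None of the 4 differences passed the adjustment, with adjusted p from 0.077 to 0.18. The reverse pattern, higher in set1htz1 and lower in the difference, was met by 5 members, where 2.64% of all genes did.

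**Figure D5:**
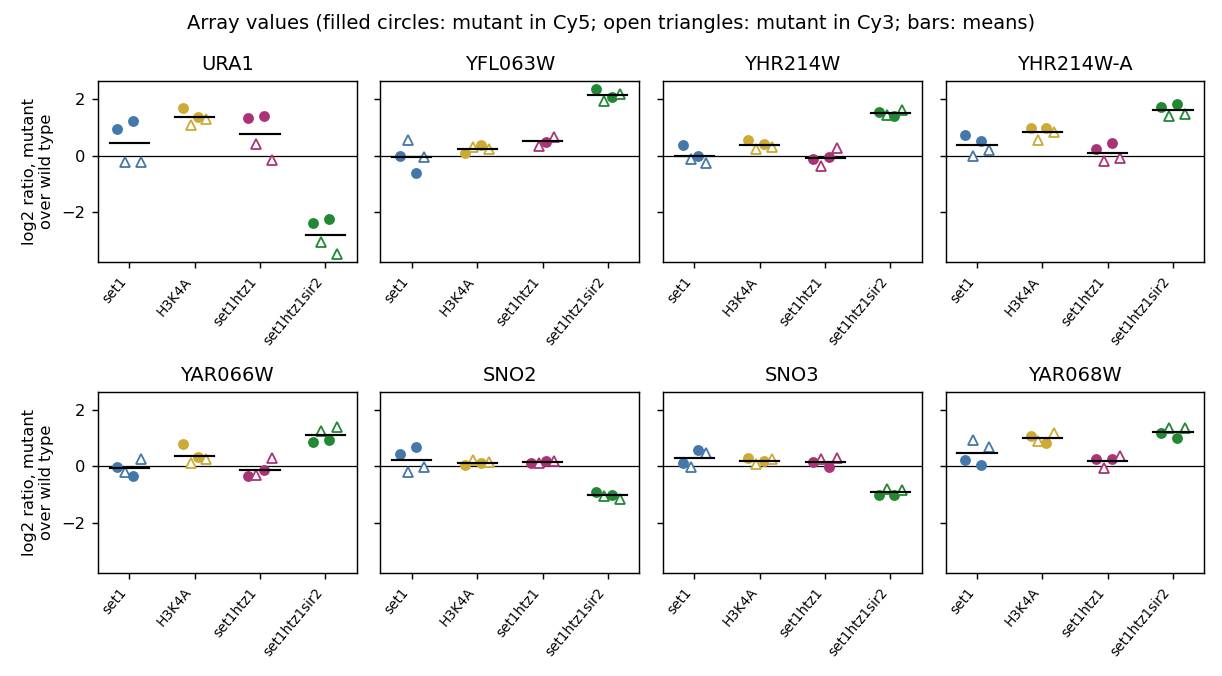
Log2 ratios of single arrays, 4 per mutant, for members with the largest differences between set1htz1sir2 and set1htz1. Filled circles are arrays with the mutant in Cy5, open triangles arrays with it in Cy3, and short lines group means; the set1htz1sir2 points of YFL063W, YHR214W and YHR214W-A lie between 1.39 and 2.34, and those of URA1 between -3.47 and -2.25.

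The difference between set1htz1 and set1 was called for 7 members upward and 8 downward, where the shares over all genes were 9.03% and 10.3% (19.3% in either direction). The largest were SUL1 (0.98 ± 0.21, adjusted p = 0.0041) and GTT1 (0.71 ± 0.16, 0.0061) upward and FET4 (-1.10 ± 0.25, 0.0052), YMR317W (-0.70 ± 0.22, 0.029) and YJL218W (-0.64 ± 0.12, 0.0015) downward. The arrays did not overlap for 9 of the 15, where they did not for 70.8% of all called genes. The calls of MHT1, SRY1, YLR460C, YOR385W, UBP11, YDL241W, YMR317W and YNR071C, with sizes of 0.36 to 0.70, missed the threshold in at least 1 fit that left out 1 array (adjusted p of at most 0.15). The upward count was 3 and 4 without set1htz1 replicates 2 and 3, and the downward count 5 and 4 without set1htz1 replicates 1 and 4. Calls over all genes fell as well, from 995 to 771, 658, 769 and 878 in the same order.

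The difference between H3K4A and set1 was called for 6 members upward and 6 downward, where the shares over all genes were 4.1% and 3.4% (7.5% in either direction). Upward were URA1 (0.92 ± 0.19), BDH1 (0.74 ± 0.14), YDR537C (0.71 ± 0.13), FMP10 (0.57 ± 0.16), FDC1 (0.51 ± 0.13) and YHR214W-A (0.47 ± 0.12). Downward were OPT2 (-0.97 ± 0.19), UBP11 (-0.85 ± 0.16), DFP4 (-0.72 ± 0.15), YJL218W (-0.72 ± 0.12), YDL241W (-0.62 ± 0.14) and YNR071C (-0.55 ± 0.16). The calls of FDC1, FMP10, YHR214W-A and YNR071C, with sizes of 0.47 to 0.57, missed the threshold in at least 1 fit that left out 1 array (adjusted p of at most 0.11). With only the arrays of these strains in the fit, 1 was called upward and 2 downward, and calls over all genes went from 386 to 96. After quantile normalization 12 and 6 were called, and 567 over all genes.

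The 29 members without a test each lacked every value of at least 1 group, so they are given as means with SD. YAR069C, of the segment beside FLO1, stood at 1.19 ± 0.45 in set1htz1, 1.28 ± 0.19 in set1htz1sir2 and 1.61 ± 0.67 in set1 (n = 4 each). YJR157W stood at 1.45 ± 0.25 in set1 (n = 3) and 0.27 ± 0.15 in H3K4A (n = 3). YHR214C-B, a Ty1 ORF and so one of many similar copies, stood at -1.54 ± 0.36 in set1htz1sir2, 0.77 ± 0.38 in set1htz1 and 0.40 ± 0.28 in set1. RTF1, a subunit of the Paf1 complex, which methylation of H3 by Set1 is known to need, stood at -0.83 ± 0.41 in set1htz1 (n = 4) and -1.13 ± 0.20 in set1htz1sir2 (n = 3). PRE4, a proteasome subunit gene, stood at 0.71 ± 0.22 in set1htz1sir2.

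Among the rest, IRC4 stood at 0.42 ± 0.33 in set1htz1 and -0.60 ± 0.29 in set1htz1sir2, and PXP3 at 0.62 ± 0.61 in set1. The remaining members without a test were MIX23, ADY3, LRG1, YDL242W, YER181C, RPN12, GUS1, BRR6, RMR1, RTG2, YGR291C, YHL041W, YHL042W, YHR212C, YIL168W, YJL215C, JEN1, YLR458W, YLR462W, IMA2 and SAM4. All 5 members of the left arm of chromosome VII (RTG2, RMR1, BRR6, GUS1 and RTF1) lacked set1 values.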

How the data were processed

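Each deposited value is a log2 ratio, mutant over wild type, of 1 array entry. Per the deposited description, the authors used GenePix 3.0, dropped spots whose regression R2 was under 0.75 or whose signal was low, and scaled to total signal. The base was taken from the values, whose lowest, -6.64, is log2 of 0.01. Entries of the same ORF, including 296 with a z prefix of unstated meaning, were averaged from 6282 to 6074 genes. Names came from a RefSeq gene table (5539 matched, 123 of 137 members). One limma fit (version 3.58.1, R 4.3.3) took all 16 arrays, with 4 group means and 1 shared dye term, and p-values were adjusted by Benjamini-Hochberg over 5147 genes; differences between mutants were fitted as coefficients of their own. The number of arrays limits the precision. Where replicates were not separate cultures, p-values measure only the spread between these samples. Named members are up to 8 of the largest called rises and falls per comparison, those called the same way in at least 3 mutants or in opposite ways, and untested ones; all arrays are given for the 12 largest changes and the 8 largest differences between the triple and double mutant. GDH3, HSU1, OXP1, IRC24, NRE1, GTT2, RSC9, FAU1, YAR062W and calls listed only for missing the threshold with 1 array left out fall outside this rule and were chosen after their values were seen. Roles were assigned by hand. The members and lists were chosen with earlier results of these data known. Replicate numbers do not pair the arrays. Alternatives are described in the closing section. Sequences were not used here.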

Additional observations from a re-analysis of the deposited data

Results flagged for a closer look

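In 192 sets of 4 arrays of the named members, 8 held 1 array far from the others by Dixon's criterion for a gap relative to the range, and chance gives about 1 in 20. In set1, YAL064W read -0.14 on replicate 3 against 0.50 to 0.62 on the others, and ARR1 read 0.00 on replicate 3 against -0.43 to -0.40. Also in set1, DDI3 read 0.11 on replicate 4 against 0.50 to 0.58, and FDH1 read 1.09 on replicate 4 against 0.69 to 0.74. In set1htz1, ARR1 read -0.30 on replicate 2 against -0.64 to -0.62. In set1htz1sir2, replicate 3 was the high array for DDI3 (0.38 against 0.19), DFP4 (0.53 against 0.23 to 0.24) and FDH1 (0.55 against 0.39 to 0.41).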

How the results depend on the processing

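No result changed direction under any alternative run. Quantile normalization gave 25 members higher in H3K4A (12 in the reported fit) with a median of 0.142, 3 higher and 5 lower in set1htz1 minus set1 (7 and 8), 5 lower in set1htz1sir2 minus set1htz1 (12), and 12 higher in H3K4A minus set1 (6). Calls over all genes in these comparisons, in that order, were then 786, 589, 243 and 567. In the reported fit they were 216, 995, 651 and 386. With only the arrays of the compared groups, 4 members were higher in H3K4A, 5 lower in set1htz1 minus set1, 12 higher and 21 lower in set1htz1sir2 minus set1htz1, and 1 higher and 2 lower in H3K4A minus set1. Calls over all genes, in the same order of comparisons, were 23, 750, 1278 and 96. Without a dye term, 5 were lower in set1htz1 minus set1 and 6 in set1htz1sir2 minus set1htz1, with 724 and 408 calls over all genes. With a dye term for each group, 1 was lower in H3K4A, and 11 were higher and 10 lower in H3K4A minus set1. All-gene calls were then 282 in H3K4A and 559 in H3K4A minus set1. Requiring a value on all 4 arrays of every group left 75 members, with 27 higher in set1htz1 and 4 higher in set1htz1 minus set1. Over the 3665 genes left, 1790 and 785 were called in either direction. With the named families kept in, the H3K4A median was 0.139. The cause of these shifts was not tested, except that the filter on all 4 arrays tests fewer members. Leaving out 1 array at a time gave 0 to 1 lower in H3K4A (1 without H3K4A replicate 2) with a median of 0.097 to 0.157 (0.157 without H3K4A replicate 3), 3 to 9 higher and 4 to 10 lower in set1htz1 minus set1, and 5 to 14 lower in set1htz1sir2 minus set1htz1. Calls over all genes in these comparisons ranged from 129 to 249, 658 to 1172 and 344 to 854. Replicate numbers did not pair the arrays: residuals of same-numbered arrays correlated from -0.524 to 0.293, and 4 of 24 correlations were over 0.1. A fit with the replicate number as a block gave 46 members higher in set1htz1sir2, 40 in set1htz1, 27 in set1 and 11 in H3K4A, with no count moved by over 1.5 times. It called 2543, 2368, 890 and 183 of all genes in either direction, in the same order. Over the single members named, 1361 values, called or not, stayed on the same side of the threshold under the settings other than leaving out an array, 88 lost a call and 11 gained one.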
